A study of Mus musculus with 9 samples.

Results

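Cadherins and protocadherins were taken from the deposited table as every gene whose symbol is Cdh followed by a number alone, or starts with Pcdh. The rule uses names and no measured value, and it found 93 genes of 22013 in the table: 23 Cdh genes, 12 protocadherins that stand alone in the genome, and 58 protocadherins of the 3 gene clusters, with 15 Pcdha, 22 Pcdhb and 21 Pcdhg genes. Total RNA was sequenced from mouse spinal meningeal primary cells whose labels give fibroblast as the cell type and spinal cord as the tissue. The 3 segments are called C, T and L in the labels, which do not spell the letters out, and each has 3 libraries of fresh cells with no treatment. The labels state no genotype, strain, age or sex, and do not say whether the libraries of a segment came from separate animals. The p-values therefore cover the spread among libraries alone, which may be technical.

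Cadherins are calcium-dependent adhesion molecules. The classical members bind the same cadherin on a neighbouring cell and are tied to the actin cytoskeleton through catenins, so the set a cell expresses influences which cells it joins. Fibroblasts are known for Cdh2 (N-cadherin) and Cdh11 (OB-cadherin), while in the mouse meninges Cdh1 (E-cadherin) marks the barrier cells of the arachnoid. Protocadherins adhere more weakly, and those of the clusters are known for giving neurons individual surface identities.

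Total estimated counts ran from 15652564 to 25204312 per library. A gene was tested if 3 or more of the 9 libraries had it at 1 TPM or above, where TPM is an abundance per transcript length scaled to a fixed total per library. Fold changes, given as log2 with their standard error (SE), come from an edgeR quasi-likelihood fit of the counts, with p-values adjusted over all 12553 genes tested and called under 0.05. Of the 93 genes, 57 were tested, 32 were detected but stayed under that filter, and Cdh7, Cdh12, Cdh16 and Pcdhb1 had 0 counts in every library. The tested ones comprise 14 Cdh genes, 9 non-clustered protocadherins, 2 Pcdha, 11 Pcdhb and 21 Pcdhg genes. In bulk RNA, fewer cells of a type and less RNA per cell cannot be told apart.

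Most of the tested cadherins and protocadherins differed among the segments. The F test over the 3 segments called 45 of 57, against 55.9% of all genes tested. Between T and C, 22 were higher in T and 19 lower, where 51% of all genes were called, 25.8% higher and 25.2% lower. Between L and C, 17 were higher in L and 15 lower, where 49.6% of all genes were called, 24.4% higher and 25.2% lower. Between L and T, 17 were higher in L and 7 lower, where 16.1% of all genes were called, 7.88% higher and 8.21% lower. The T and L comparisons with C share the same C libraries. On log2(TPM + 0.1) with limma the split between L and C became 19 higher and 10 lower. On that scale the median of all genes was 0.14 in T and 0.11 in L against C, where the edgeR medians were 0.02 and 0.01.

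Changes of at least 2-fold were more often falls than rises in T, among the members as among all genes. Against C, 12 members were lower in T by at least 2-fold, where 7.22% of all genes were, and 9 were higher, where 5.92% were. In L, 7 were lower than in C by at least 2-fold, against 6.93% of all genes, and 3 were higher, against 5.57%. Between L and T, 4 were at least 2-fold higher in L and 2 lower, where 1.84% and 2.47% of all genes were.

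The libraries carried fibroblast transcripts throughout: all 10 fibroblast markers listed reached a mean of 1 TPM, with a summed level of 13910 to 14360 TPM in C, 13890 to 14680 in T and 16420 to 16840 in L. Arachnoid barrier markers reached 1 TPM in 9 of 12 and summed to 286 to 291 TPM in C, 810 to 928 in T and 658 to 759 in L, while Slc22a6, Slc47a1 and Krt18 stayed below 1. Of the other cell types, mural markers (8 of 10 detected) summed to 8315 to 8460, 4790 to 5377 and 6938 to 7601 TPM in C, T and L, most of it Acta2. Macrophage markers (9 of 10) summed to 172 to 187, 278 to 285 and 92.6 to 97.1 TPM, with Ptprc below 1. Astrocyte and ependymal markers (8 of 8) summed to 187 to 208, 188 to 198 and 52.2 to 56.9 TPM, and oligodendrocyte lineage markers (6 of 8, without Mog and Mag) to 126 to 129, 125 to 138 and 149 to 160 TPM. Some lists share genes, so their sums are not separate. Pdgfra is in the fibroblast and oligodendrocyte lists, Pdgfrb in the fibroblast and mural lists, and Cspg4 in the oligodendrocyte and mural lists. Neuronal markers reached 1 TPM in 3 of 10 and summed to 238 to 243, 30.5 to 36.0 and 48.5 to 52.4 TPM, with Rbfox3 and Snap25 below 1. Myogenic markers reached it in 1 of 10, Itga7, with Myog at 0, and melanocyte markers in 2 of 6, with Tyr at 0. The myogenic sums were 39.0 to 41.6, 6.39 to 6.90 and 13.0 to 14.1 TPM in C, T and L, and the melanocyte sums 2.71 to 3.51, 4.94 to 6.70 and 3.52 to 4.66.

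Cdh1, which encodes E-cadherin, was the member with the largest fold change and was all but missing from C. Its level was 0.103, 0.214 and 0.102 TPM in the C libraries, on 17 counts in all, 5.65, 6.06 and 6.41 TPM in T, and 1.81, 1.05 and 1.52 TPM in L. The segments did not overlap, and L lay between C and T. From C to T Cdh1 rose by a log2 of 5.32 (SE 0.26), and from C to L by 3.30 (SE 0.32, edgeR adjusted p = 1.72e-06). From T to L it fell by 2.02 on the log2 scale (SE 0.18, edgeR adjusted p = 3.79e-06).

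Cdh3 (P-cadherin), a classical cadherin of epithelia, is the gene next to Cdh1 in the mouse genome, per the RefSeq annotation of GRCm38.p6. It stood at 0.156, 0.297 and 0.206 TPM in C, 1.34, 1.12 and 1.04 TPM in T, and 1.63, 1.30 and 1.79 TPM in L. Both T and L lay above C in every library, while T and L overlapped. Cdh3 rose 4.82-fold from C to T (log2 2.27, SE 0.30, edgeR adjusted p = 2.73e-05) and 6.68-fold from C to L (log2 2.74, SE 0.29, edgeR adjusted p = 3.7e-06). Between L and T the log2 difference was 0.47 (SE 0.23, edgeR adjusted p = 0.203). Cdh1 was thus higher in T than in L, and Cdh3 was not called between them. Neither gene reached 1 TPM in any C library, so both met the filter through T and L alone.

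Cldn11, a claudin found in the arachnoid, had a mean of 1.10, 111 and 37.8 TPM in C, T and L, and Wnt6 had 2.46, 60.1 and 37.9 TPM, so both were lowest in C and highest in T, as Cdh1 was. Of the 9 arachnoid markers detected, 4 had that order of means and 4 others (Crabp2, Dpp4, Slc22a8 and Ptgds) were lowest in C and highest in L, while Tagln3 was lowest in L. Of the epithelial markers 2 of 12 reached 1 TPM, Krt15 at 0.149, 5.83 and 1.12 TPM and Krt19 at 26.3, 61.8 and 33.3 TPM in C, T and L. Cldn4 was at 0 and Epcam did not pass 0.211 TPM in any library. The epithelial sum was 26.1 to 29.0 TPM in C, 63.8 to 73.0 in T and 30.2 to 40.1 in L. The part of these cells in the Cdh1 and Cdh3 levels was not tested.

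**Figure D1:**
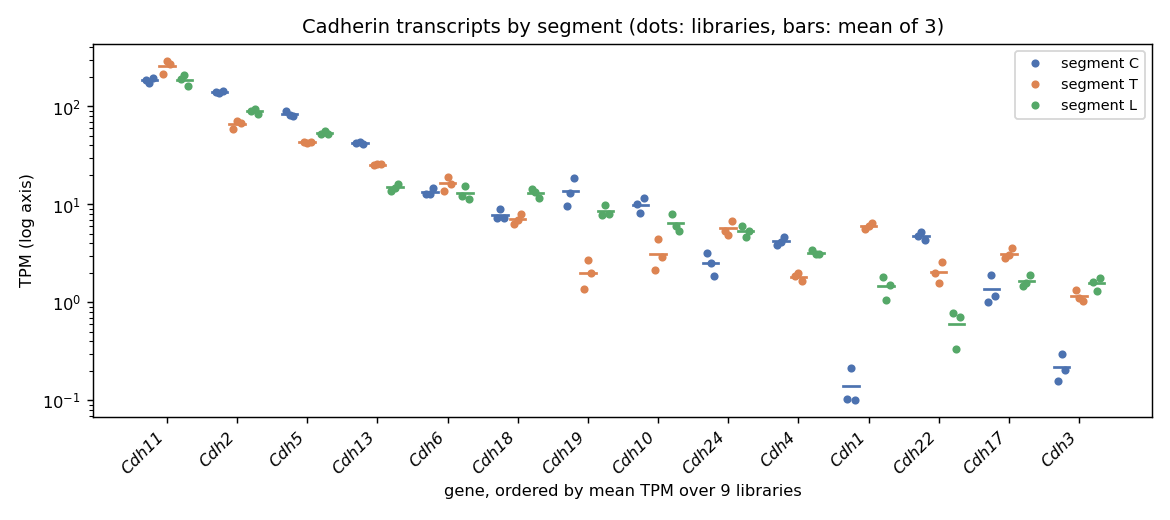
TPM (log axis) of the 14 tested Cdh genes in each of the 9 libraries, ordered by mean level; dots are libraries and bars the mean of 3 libraries in C (blue), T (orange) and L (green). Cdh11, Cdh2, Cdh5 and Cdh13 are the most abundant, and Cdh1 and Cdh3 are the genes with C far below T and L.

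Cdh11 and Cdh2, the cadherins of mesenchymal cells, were the most abundant Cdh genes and moved in opposite directions from C to T. Cdh11 had 188, 174 and 195 TPM in C, 217, 292 and 272 TPM in T, and 191, 211 and 163 TPM in L. T lay above both other segments in every library, and C and L overlapped. The rise from C to T was 1.28-fold (log2 0.36, SE 0.09, edgeR adjusted p = 0.00614), and L against C gave a log2 of -0.09 with an approximate 95% interval of -0.27 to 0.10. Cdh2 had 142, 136 and 145 TPM in C, 59.4, 70.6 and 68.6 TPM in T, and 89.8, 93.3 and 83.8 TPM in L, with no overlap between any of the segments. It fell 2.31-fold from C to T (log2 fell by 1.21, SE 0.06, edgeR adjusted p = 2.81e-09) and 1.70-fold from C to L, and stood 1.36-fold higher in L than T (edgeR adjusted p = 0.000224).

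The summed Cdh level averaged 513 ± 16.4 TPM for C, 445 ± 49.9 TPM for T and 402 ± 33.3 TPM for L (± SD over 3 libraries each). Within that sum the make-up differed by segment. Cdh11 took 36.2% ± 0.957 of it in C, 58.4% ± 2.34 in T and 46.7% ± 2.15 in L, while Cdh2 took 27.5% ± 0.0777, 14.9% ± 0.351 and 22.2% ± 0.643. Cdh5 held 16.3% ± 1.14, 9.78% ± 1.27 and 13.5% ± 0.786, and Cdh13 8.32% ± 0.466, 5.79% ± 0.602 and 3.75% ± 0.608. These shares are a description and were not tested.

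**Figure D2:**
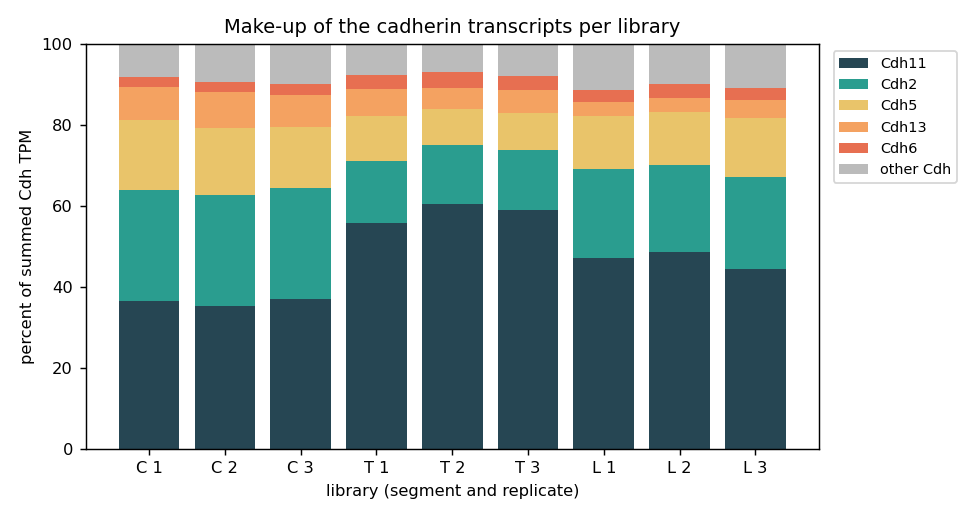
Percent of the summed Cdh TPM taken by Cdh11, Cdh2, Cdh5, Cdh13, Cdh6 and all other Cdh genes, as stacked bars for each library. The Cdh11 part is larger and the Cdh2 part smaller in the T bars than in the C bars, with L between them.

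Cdh5 (VE-cadherin), best known as the cadherin of endothelial junctions, was the third most abundant Cdh gene. It had 89.4, 82.0 and 79.3 TPM in C, 43.6, 42.7 and 42.9 TPM in T, and 53.0, 56.5 and 52.9 TPM in L. No segments overlapped, with C highest and T lowest. It fell 2.11-fold from C to T (log2 fell by 1.08, SE 0.06, edgeR adjusted p = 9.98e-09) and 1.66-fold from C to L, and stood 1.27-fold higher in L than T.

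Some endothelial markers were at or near 0 beside it and others were not. Cldn5 and Sox17 were at 0 in all libraries, Pecam1 did not pass 0.395 TPM and Tie1 did not pass 0.088 TPM in any. Of 12 endothelial markers 6 reached a mean of 1 TPM, and their summed level of 32.6 to 35.1 TPM in C, 9.90 to 10.6 in T and 13.8 to 16.1 in L lay below the level of Cdh5 alone in every segment. Flt1 at 16.1 TPM in C against 1.13 in T and 1.18 in L, and Emcn at 6.30 against 0.192 and 0.641, were highest in C, as Cdh5 was. Kdr (1.25, 0.222 and 0.150 TPM in C, T and L) was highest in C too, while Tek (2.13, 4.33 and 4.45 TPM) was lowest in C. The part of endothelial cells in the Cdh5 level was not tested.

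Cdh13 (T-cadherin) is held in the membrane by a lipid anchor and lacks the cytoplasmic tail that binds catenins. It had 42.3, 43.7 and 41.8 TPM in C, 25.1, 25.6 and 26.0 TPM in T, and 13.7, 14.8 and 16.3 TPM in L. The 3 segments were fully separate, in the order C, T, L from high to low. The fall was 1.82-fold from C to T (log2 fell by 0.86, SE 0.08) and then 1.68-fold again between T and L (log2 fell by 0.75, SE 0.08, edgeR adjusted p = 2.14e-05).

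Cdh22, a cadherin best known from the brain, followed the same order at a much lower level. It had 4.74, 5.24 and 4.38 TPM in C, 2.02, 1.58 and 2.57 TPM in T, and 0.784, 0.334 and 0.705 TPM in L. It fell 2.67-fold from C to T (edgeR adjusted p = 2.67e-05) and 9.42-fold from C to L (log2 fell by 3.23, SE 0.23, edgeR adjusted p = 9.3e-08), the largest fall of any tested Cdh gene in L. From T to L it fell 3.52-fold, with no overlap.

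Cdh19, a cadherin known from Schwann cell precursors, was lowest in T. It had 9.76, 13.0 and 18.4 TPM in C, 1.36, 2.71 and 1.98 TPM in T, and 7.79, 9.99 and 7.95 TPM in L. T lay apart from both other segments, while L replicate 2 reached into the range of C. Cdh19 fell 7.38-fold from C to T (log2 fell by 2.88, SE 0.24, edgeR adjusted p = 3.78e-07) and stood 4.26-fold higher in L than T (log2 2.09, SE 0.26). The fall from C to L was 1.73-fold (edgeR adjusted p = 0.00644), a call lost in limma on log2(TPM + 0.1), where the adjusted p was 0.07 (0.00108 to 0.07 over 19 alternatives).

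Most genes listed for the Schwann lineage had the same order of segments. Sox10, its defining transcription factor, had a mean of 16.5, 2.13 and 7.25 TPM in C, T and L, and Erbb3 had 11.7, 1.51 and 5.19 TPM. Of the 10 markers detected, 9 had that order of means, and S100b was highest in T (6.18, 19.0 and 10.2 TPM). Of 12 markers of Schwann and other neural crest glia 10 reached 1 TPM, summing to 360 to 367 TPM in C, 178 to 180 in T and 259 to 270 in L. The part of such cells in the Cdh19 level was not tested.

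**Figure D3:**
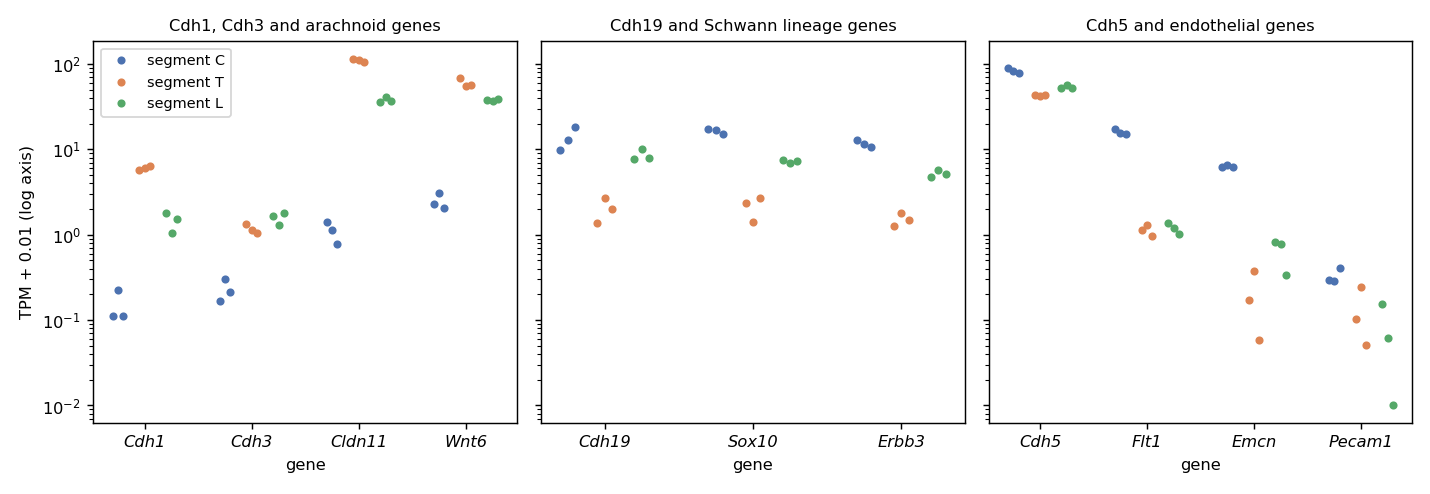
TPM + 0.01 (log axis) of Cdh1, Cdh3, Cdh19 and Cdh5 in each library, each beside genes known from arachnoid, Schwann lineage and endothelial cells; dots are libraries of C (blue), T (orange) and L (green). The genes shown are chosen from longer lists. Cldn11 and Wnt6 are lowest in C like Cdh1, and Sox10 and Erbb3 are lowest in T like Cdh19. Flt1 and Emcn are highest in C like Cdh5, and Pecam1 lies below 0.5 TPM in every library while Cdh5 lies above 40.

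Among the remaining cadherins, Cdh10 and Cdh4 were lower in T than in C, Cdh24 and Cdh17 higher, and Cdh18 was highest in L. Cdh10 had 10.1, 8.23 and 11.6 TPM in C, 2.13, 4.39 and 2.90 TPM in T, and 7.97, 5.99 and 5.32 TPM in L. It fell 3.43-fold from C to T (log2 fell by 1.78, SE 0.21, edgeR adjusted p = 1.22e-05) and stood 2.04-fold higher in L than T. The fall of 1.68-fold from C to L was not called by limma on log2(TPM + 0.1), where the adjusted p was 0.0561 (0.000723 to 0.0561 over 19 alternatives).

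Cdh4 (R-cadherin), known from the retina, ranged from 3.87 to 4.70 TPM in C, 1.64 to 2.00 in T and 3.10 to 3.40 in L, so that the segments did not overlap. It fell 2.52-fold from C to T (edgeR adjusted p = 9.21e-07) and 1.42-fold from C to L, and the latter call was lost in limma on log2(TPM + 0.1), where the adjusted p was 0.0707 (0.0019 to 0.0707 over 19 alternatives). Cdh24 had 3.17, 2.51 and 1.86 TPM in C, 5.41, 4.86 and 6.80 TPM in T, and 6.06, 4.61 and 5.30 TPM in L. It was 2.096-fold higher in T and 1.99-fold higher in L than in C (edgeR adjusted p = 5e-04 and 0.00105), and T and L overlapped.

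Cdh18 had 7.21, 9.08 and 7.35 TPM in C, 6.27, 7.00 and 8.01 TPM in T, and 14.3, 13.3 and 11.6 TPM in L. L lay above both others in every library, by 1.49-fold against C (edgeR adjusted p = 0.00171) and 1.82-fold against T (edgeR adjusted p = 0.000268), while C and T overlapped. Cdh17, known from the intestine, ranged from 1.02 to 1.91 TPM in C, 2.83 to 3.59 in T and 1.47 to 1.91 in L. It rose 2.13-fold from C to T (edgeR adjusted p = 0.00135). From T to L it fell 1.87-fold (edgeR adjusted p = 0.0159), which was not called without T replicate 3 (adjusted p = 0.0768), L replicate 1 (0.0723) or L replicate 2 (0.0519), over a range of 0.00611 to 0.0768 in 19 alternatives.

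Cdh6 was the tested Cdh gene that the F test did not call (edgeR adjusted p = 0.0741). It ranged from 12.9 to 14.7 TPM in C, 13.9 to 19.0 in T and 11.4 to 15.3 in L, with a log2 difference of T against C of 0.15 (approximate 95% interval -0.07 to 0.37). For L against T, Cdh6 was called without T replicate 1 (edgeR adjusted p = 0.0105) or L replicate 2 (0.0203), over a range of 0.0105 to 0.266 in 19 alternatives.

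The Cdh genes under the filter did not reach 1 TPM in any library. Cdh20 and Cdh26, with 73 and 69 counts over the C libraries, 30 and 27 over T and 18 and 26 over L, entered the test when the filter asked for 10 counts in 3 libraries instead. There both were lower than in C, Cdh20 by 2.17-fold in T and 3.21-fold in L and Cdh26 by 2.28-fold and 2.11-fold (edgeR adjusted p from 0.00176 to 0.0248). Neither would have met that filter on its T and L libraries alone. A lower level in T and L was thus favoured by the entry of both genes. Cdh15 (M-cadherin), a cadherin of skeletal muscle, had 16 counts in C, 1 in T and 2 in L. Cdh23, part of the tip link of inner ear hair cells, had 18, 4 and 4 counts, Cdh8 had 4, 17 and 26, and Cdh9 had 1, 6 and 3.

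The non-clustered protocadherins included the largest fall from C among the 57 tested members. Pcdh1, which in humans serves as an adhesion molecule of the airway epithelium, had 42.7, 45.8 and 45.6 TPM in C, 3.42, 2.82 and 4.14 TPM in T, and 12.6, 12.7 and 12.4 TPM in L. No libraries of different segments overlapped, and L lay between C and T. It fell 14.2-fold from C to T (log2 fell by 3.83, SE 0.11, edgeR adjusted p = 6.62e-12) and 3.89-fold from C to L, and stood 3.65-fold higher in L than T (log2 1.87, SE 0.11, edgeR adjusted p = 7.9e-08).

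Pcdh20 had the same order, with 17.4, 16.9 and 19.5 TPM in C, 1.58, 2.84 and 2.85 TPM in T, and 5.82, 6.14 and 5.34 TPM in L. It fell 7.84-fold from C to T (log2 fell by 2.97, SE 0.15, edgeR adjusted p = 1.39e-09) and 3.25-fold from C to L, and stood 2.41-fold higher in L than T. Its neighbour in the RefSeq annotation, Pcdh9, did not pass in any comparison. Pcdh9 ranged from 4.29 to 4.61 TPM in C, 4.11 to 4.81 in T and 3.57 to 3.81 in L, with a log2 difference of -0.13 in T (approximate 95% interval -0.33 to 0.08) and of -0.20 in L (-0.41 to 0.002) against C. It was called lower in L than in C by limma on median-centred log2(TPM + 1) (adjusted p = 0.0181, with 0.0181 to 0.286 over 19 alternatives).

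The promoters of this pair are given from 250 bases before to 50 after the start of the gene in RefSeq (GRCm38.p6). They are shown because the genes follow each other among the annotated protein-coding genes and behaved differently. The coordinates place them far apart in sequence. CG dinucleotides, the sites that DNA methylation uses, are in capitals. Pcdh20 at chr14:88471347-88471646 on the minus strand holds 4 of them (43.7% G and C), and Pcdh9 at chr14:93890620-93890919 on the minus strand holds 19 (62.3% G and C). Another listed promoter of Pcdh9, not printed, holds 18.
Pcdh20: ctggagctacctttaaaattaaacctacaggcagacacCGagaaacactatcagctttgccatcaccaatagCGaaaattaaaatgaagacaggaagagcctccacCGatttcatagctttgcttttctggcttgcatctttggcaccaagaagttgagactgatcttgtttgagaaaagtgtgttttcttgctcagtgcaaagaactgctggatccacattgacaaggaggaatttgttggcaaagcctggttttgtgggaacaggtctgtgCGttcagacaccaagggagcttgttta
Pcdh9: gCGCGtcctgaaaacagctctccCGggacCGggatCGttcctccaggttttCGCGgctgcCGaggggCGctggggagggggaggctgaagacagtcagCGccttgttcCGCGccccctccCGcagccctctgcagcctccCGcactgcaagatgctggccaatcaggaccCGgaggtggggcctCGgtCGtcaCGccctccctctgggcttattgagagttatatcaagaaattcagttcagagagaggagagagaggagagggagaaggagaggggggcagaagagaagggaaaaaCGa
The ratio of observed to expected CG was 0.281 for Pcdh20 and 0.664 for Pcdh9, where the median over all 32851 promoters was 0.384. Members lower in T and L lay on either side of that median, where a promoter was given. Cdh10, like Pcdh20, lay below it, with a ratio of 0.193 and 2 CG dinucleotides. Pcdh19 lay above it, with a ratio of 0.54 and 18 CG dinucleotides. Cdh24, Pcdh7 and Pcdh17, higher in T and L, also lay above it, with ratios of 0.745, 0.493 and 0.822. Besides Pcdh9, the uncalled members with a promoter were Pcdh18, above it at 0.778, and Cdh6, below it at 0.38. A link between CG content and the changes was not tested. Cdh22 and Pcdh10, both lower in T and L, had ratios of 0.871 and 0.824, with 38 and 24 CG dinucleotides.
Cdh22 (chr2:165234688-165234987, minus strand): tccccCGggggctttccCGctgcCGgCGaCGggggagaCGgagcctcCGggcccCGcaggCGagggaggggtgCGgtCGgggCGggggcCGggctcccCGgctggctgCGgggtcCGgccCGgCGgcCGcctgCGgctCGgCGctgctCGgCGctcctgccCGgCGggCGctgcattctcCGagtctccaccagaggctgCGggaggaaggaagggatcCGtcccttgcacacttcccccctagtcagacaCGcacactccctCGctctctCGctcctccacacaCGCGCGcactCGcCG
Pcdh10 (chr3:45378148-45378447, plus strand): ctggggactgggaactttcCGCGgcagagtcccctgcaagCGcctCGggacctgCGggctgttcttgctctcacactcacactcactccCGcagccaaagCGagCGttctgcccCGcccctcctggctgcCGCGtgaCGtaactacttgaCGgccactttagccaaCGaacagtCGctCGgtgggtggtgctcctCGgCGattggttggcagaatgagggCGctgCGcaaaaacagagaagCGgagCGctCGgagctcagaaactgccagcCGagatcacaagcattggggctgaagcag

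The letters CACCTG, an E-box that the Snail and Zeb repressors bind, were searched on both strands of the 13 promoters of the 12 tested members that the table holds outside chromosome 18. They were found in 1, that of Pcdh7, where 20.2% of all promoters hold them. Cdh1, Cdh3, Cdh4, Cdh5, Cdh11, Cdh13, Cdh17, Cdh19 and Pcdh11x were not searched. A match or its lack in these windows is a description of the letters.

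Pcdh10, known from the brain as OL-protocadherin, had 7.63, 6.91 and 7.49 TPM in C, 2.72, 1.85 and 2.51 TPM in T, and 3.77, 4.77 and 3.58 TPM in L. The segments did not overlap, and it fell 3.46-fold from C to T (log2 fell by 1.79, SE 0.12, edgeR adjusted p = 2.35e-08) and 2.04-fold from C to L. Pcdh19, an X-linked gene mutated in a human epilepsy, had 44.5, 38.8 and 42.6 TPM in C, 20.0, 24.1 and 22.0 TPM in T, and 36.2, 43.8 and 35.1 TPM in L. T lay below both other segments in every library, and C and L overlapped. Pcdh19 fell 2.08-fold from C to T (log2 fell by 1.05, SE 0.08, edgeR adjusted p = 1.56e-07) and stood 1.76-fold higher in L than T. The difference of L against C (log2 -0.24, edgeR adjusted p = 0.0251) was not called without C replicate 1 or 3 or L replicate 1 or 3 (adjusted p = 0.138, 0.0796, 0.112 and 0.12), with library totals (0.0614) or by limma on log2(TPM + 1) (0.306), over a range of 0.00376 to 0.307 in 19 alternatives.

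Pcdh7, the most abundant non-clustered protocadherin, and Pcdh17 were higher in T and L than in C. Pcdh7 had 71.97, 65.3 and 76.6 TPM in C, 90.03, 104 and 101 TPM in T, and 104, 121 and 92.2 TPM in L. All 6 libraries of T and L lay above C, with a rise of 1.27-fold in T (log2 0.34, SE 0.08, edgeR adjusted p = 0.00203) and of 1.38-fold in L (log2 0.47, SE 0.08, edgeR adjusted p = 0.000201). Pcdh17 had 2.27, 1.56 and 1.80 TPM in C, 3.96, 4.51 and 4.37 TPM in T, and 5.85, 6.73 and 4.96 TPM in L. It rose 2.09-fold from C to T (edgeR adjusted p = 1.53e-05) and 2.89-fold from C to L (edgeR adjusted p = 4.9e-07), with no overlap. The difference of L against T (log2 0.46, edgeR adjusted p = 0.0199) was lost without T replicate 3 (0.0629), L replicate 1 (0.064) or L replicate 2 (0.0856) and by limma on log2(TPM + 1) (0.113), over a range of 0.00549 to 0.158 in 19 alternatives.

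Pcdh11x, an X-linked gene, ranged from 0.961 to 2.13 TPM in C, 2.67 to 3.89 in T and 2.05 to 2.61 in L. It rose 1.75-fold from C to T (edgeR adjusted p = 0.0106). Against C, its difference in L (log2 0.51, edgeR adjusted p = 0.0936) was called without C replicate 3 (adjusted p = 0.0047, range 0.0047 to 0.301 over 19 alternatives). Pcdh18 did not pass in any comparison, with 19.3 to 21.2 TPM in C, 18.6 to 22.2 in T and 20.4 to 24.0 in L and a log2 difference of T against C of -0.14 (approximate 95% interval -0.30 to 0.02). Pcdh12, known from endothelium, had 7 counts in C and 0 in T and L, where 0 counts allow up to 3 in a segment. Pcdh8 had 4, 3 and 1 counts and Pcdh15, the tip link partner of Cdh23, had 9, 0 and 4.

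**Figure D4:**
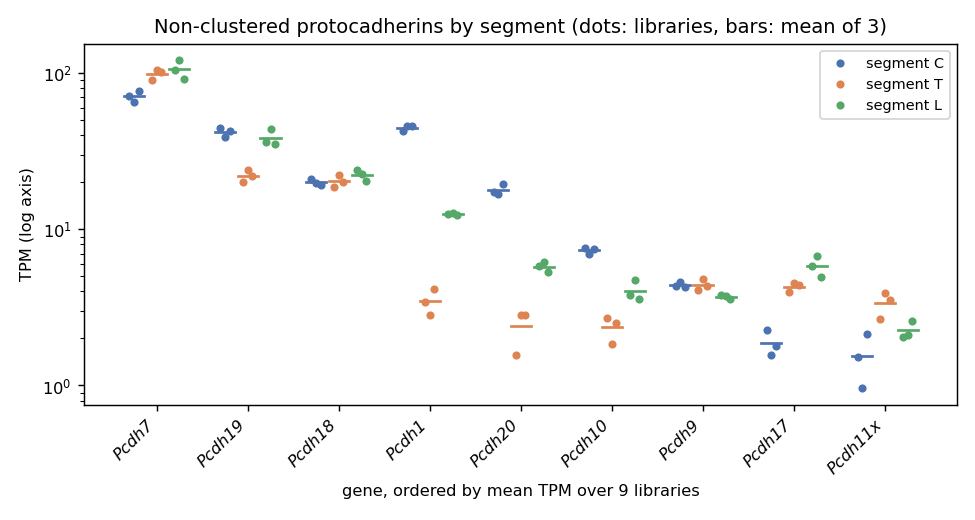
TPM (log axis) of the 9 tested non-clustered protocadherins in each of the 9 libraries, ordered by mean level; dots are libraries and bars the mean of 3 libraries in C (blue), T (orange) and L (green). Pcdh1, Pcdh20 and Pcdh10 run from C down to T with L between, Pcdh19 is low in T, and Pcdh7 and Pcdh17 are lowest in C.

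The clustered protocadherins lie in tandem on mouse chromosome 18, per the RefSeq annotation. Each Pcdha and Pcdhg gene joins its own variable exon to constant exons that its cluster shares, and Pcdhb genes have no such shared exons. No source used here says how the authors' counting assigned reads from the shared exons or whether it used strand, so values of single Pcdha and Pcdhg genes are uncertain, as are those of near-identical neighbours. All 58 together summed to 481 ± 11.03 TPM for C, 477 ± 10.6 for T and 583 ± 9.26 for L (± SD over 3 libraries each).

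Pcdha genes were low, and lower in T and L than in C. Their sum was 8.87, 8.05 and 8.96 TPM in C, 4.87, 4.94 and 4.42 TPM in T, and 4.32, 4.30 and 3.83 TPM in L, so that C stood above both. Of 15 genes 2 were tested, and both were lower in T and in L. Pcdha12 had 2.57, 2.097 and 2.37 TPM in C, 1.07, 0.543 and 0.646 TPM in T, and 0.854, 1.29 and 0.573 TPM in L, and fell 3.44-fold from C to T (log2 fell by 1.78, SE 0.27, edgeR adjusted p = 9.39e-05) and 2.86-fold from C to L. Its T and L libraries alone would not have met the filter of 1 TPM in 3 libraries. A lower level of Pcdha12 in T and L was thus favoured by its entry. Pcdha10 ranged from 2.56 to 3.63 TPM in C, 1.93 to 2.103 in T and 1.81 to 2.05 in L, and fell 1.63-fold from C to T (edgeR adjusted p = 0.00183) and 1.66-fold from C to L (edgeR adjusted p = 0.00172). With a filter of 10 counts in 3 libraries, Pcdhac2 was lower in T and L (1.91-fold and 3.36-fold) and Pcdha4 in L, while Pcdha5, Pcdha9 and Pcdha11 did not pass. Pcdha6, under 0.5 TPM, had 47 counts over the C libraries, 2 over T and 2 over L. It entered that filter through its C libraries alone, so a lower level in T and L was built into its entry. The other 7 Pcdha genes did not pass 0.38 TPM in any library.

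Pcdhb genes were highest in T. Their sum was 24.2, 22.4 and 25.6 TPM in C, 33.7, 46.2 and 39.8 TPM in T, and 30.2, 33.5 and 26.1 TPM in L, so that T lay above both others in every library. Of 11 tested, 7 rose from C to T and none fell, with a median log2 difference of 0.68 where the median of all genes was 0.02 (0.45 to 0.88 over the alternatives). None was called between L and C, where 49.6% of all genes were. The log2 differences ran from -0.08 to 1.16, and 9 of the 11 were above 0. Their median was 0.305 (0.128 to 0.414 over the alternatives), where that of all genes was 0.007. Their SE reached 0.475, so the lack of calls does not show a lack of difference. On library totals 2 of the 11 were called higher in L than in C, Pcdhb16 and Pcdhb7, and 1 was without C replicate 3, T replicate 1, L replicate 2 or L replicate 3. From T to L 2 fell, Pcdhb19 by 1.67-fold and Pcdhb20 by 1.71-fold, and that count was 0 without T replicate 3 or L replicate 3, 1 without C replicate 1, T replicate 2 or L replicate 1, and 5 without T replicate 1.

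Pcdhb22, the most abundant of the cluster, had 8.71, 8.02 and 8.75 TPM in C, 9.21, 12.4 and 9.96 TPM in T, and 8.42, 9.18 and 7.83 TPM in L, and was not called (log2 0.16 for T against C, edgeR adjusted p = 0.182), except lower in L than in T without T replicate 1 (0.0442, with 0.0442 to 0.37 over 19 alternatives). Pcdhb17 had 3.82, 4.70 and 4.18 TPM in C, 6.30, 8.09 and 7.73 TPM in T, and 5.10, 6.83 and 4.76 TPM in L. Both T and L lay above C, and Pcdhb17 rose 1.60-fold from C to T (log2 0.68, SE 0.14, edgeR adjusted p = 0.0011). The L against T difference of Pcdhb17 (log2 -0.39, edgeR adjusted p = 0.0744) was called without T replicate 1 (0.0238) or L replicate 2 (0.0166) and with the replicate number as a block (0.0338), over a range of 0.0166 to 0.25 in 19 alternatives. Pcdhb16 rose 1.49-fold from C to T (edgeR adjusted p = 0.00453). Pcdhb7 had the largest rise of the cluster, 3.05-fold (log2 1.61, SE 0.44, edgeR adjusted p = 0.00845), from 0.325 ± 0.231 to 1.14 ± 0.258 TPM. No C library of Pcdhb7 reached 1 TPM (0.391, 0.068 and 0.516). It met the filter through T replicates 1 and 2 and L replicate 1 (1.24, 1.33 and 1.04 TPM). A higher level than in C was thus built into its entry, and so into its place in the count of rises. For L against C, Pcdhb7 had an edgeR adjusted p of 0.0571 and was called in 6 of 19 alternatives, among them those without C replicate 3 (0.0268), T replicate 1 (0.0464) or L replicate 2 (0.0296), in a range of 0.0268 to 0.201. The other rises, by 1.95-fold to 2.18-fold, were those of Pcdhb15, Pcdhb19, Pcdhb20 and Pcdhb21. The 11 Pcdhb genes under the filter did not pass 1.49 TPM in any library. With the filter of 10 counts, Pcdhb5 and Pcdhb14 were higher in T than in C by 1.86-fold and 1.87-fold. Pcdhb4 had 12 counts over the C libraries, 32 over T and 25 over L, and no C library reached 10. It entered that filter through T and L replicate 3. A higher level than in C (2.90-fold in T and 2.54-fold in L) was thus built into its entry.

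Pcdhg genes were the abundant cluster, and all 21 were tested. Their sum averaged 449 ± 12.8 TPM for C, 432 ± 15.7 for T and 549 ± 13.0 for L (± SD over 3 libraries each), and Pcdhgc3 alone held 56.4%, 49.3% and 54.8% of it. Pcdhgc3 had 253, 260.98 and 245 TPM in C, 229, 201 and 209 TPM in T, and 298, 291 and 315 TPM in L. The segments did not overlap, with T lowest and L highest. It fell 1.29-fold from C to T (log2 fell by 0.37, SE 0.07, edgeR adjusted p = 0.000635) and stood 1.43-fold higher in L than T (log2 0.52, SE 0.07, edgeR adjusted p = 0.000146). The difference of L against C (log2 0.15, edgeR adjusted p = 0.0985) was called without T replicate 1 (0.0367), with library totals (0.0318), in a fit of L and C alone (0.0495) and by limma on log2(TPM + 1) (0.00484), over a range of 0.00484 to 0.279 in 19 alternatives.

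Without Pcdhgc3 the other Pcdhg genes summed to 200, 198 and 189 TPM in C, 222, 221 and 215 TPM in T, and 246, 249 and 249 TPM in L, in the order C, T, L with no overlap. From C to T 7 of the 21 Pcdhg genes rose and 6 fell, shares near the 25.8% and 25.2% of all genes, and limma on log2(TPM + 1) gave 10 and 3. From C to L 11 rose and 2 fell, where 24.4% and 25.2% of all genes did, and 1 fell without C replicate 1, L replicate 1 or L replicate 2. From T to L 6 rose and none fell, and the rises were 3 without T replicate 3, L replicate 1 or L replicate 2, and 2 without L replicate 3, while 1 fell without T replicate 2. Over all genes, 7.88% rose and 8.21% fell from T to L.

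By type, the counts can be read against the same shares of all genes. Of 12 Pcdhga genes 5 rose and 3 fell from C to T (1 fell without C replicate 1), and 7 rose and none fell from C to L. Their summed level was 118 ± 5.08, 147 ± 1.43 and 163 ± 0.658 TPM in C, T and L. Of 6 Pcdhgb genes 2 rose and 1 fell from C to T, and 4 rose and 1 fell from C to L (none fell without C replicate 1, L replicate 1 or L replicate 2, and without C replicate 3 the T counts were 1 and 2), with a summed level of 59.5 ± 4.10, 65.5 ± 2.17 and 75.9 ± 2.14 TPM. Of 3 Pcdhgc genes 2 fell and none rose from C to T. A test of the difference between types was not made.

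Pcdhga7 had 24.7, 25.6 and 21.9 TPM in C, 29.0, 29.9 and 27.5 TPM in T, and 34.1, 33.1 and 34.7 TPM in L. The segments did not overlap, and it rose 1.323-fold from C to L (log2 0.40, SE 0.08, edgeR adjusted p = 0.000751). For T against C the log2 difference was 0.16 (edgeR adjusted p = 0.0976), called with library totals (0.0229) and by limma on log2(TPM + 1) (0.0186), in a range of 0.0179 to 0.381 over 19 alternatives. For L against T it was 0.24 (edgeR adjusted p = 0.0507), called without T replicate 1 (0.0349) or C replicate 3 (0.0394) and by DESeq2 (0.0269), in a range of 0.0269 to 0.204. Pcdhga10 had 18.8, 23.4 and 19.9 TPM in C, 20.2, 20.5 and 23.9 TPM in T, and 25.7, 25.8 and 27.5 TPM in L, so that L lay above the other segments. Its rise from T to L (log2 0.32, SE 0.10, edgeR adjusted p = 0.0441) was called in 9 of 19 alternatives, whose adjusted p ran from 0.0207 to 0.147, and was lost without any of the 3 libraries of L, T replicate 1 or 2, or C replicate 3. For L against C, Pcdhga10 had an edgeR adjusted p of 0.0524 and was called in 10 of 19 alternatives, from 0.0102 to 0.168, among them those without C replicate 2 or T replicate 1 or 2.

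Pcdhgc5, the last gene of the cluster, had the largest change in it. It stood at 15.3, 14.6 and 19.0 TPM in C, 4.87, 6.74 and 4.78 TPM in T, and 7.496, 6.46 and 7.09 TPM in L. C lay above both other segments in every library. Pcdhgc5 fell 3.06-fold from C to T (log2 fell by 1.61, SE 0.12, edgeR adjusted p = 1.21e-07) and 2.51-fold from C to L (log2 fell by 1.33, SE 0.12, edgeR adjusted p = 9.66e-07). Without T replicate 2 it was also called higher in L than in T (edgeR adjusted p = 0.0198, with 0.0198 to 0.489 over 19 alternatives).

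Along the Pcdhg cluster the genes called from C to T were rises at its start and falls at its end. This pattern was noticed after the values were seen and was not tested. Among the genes at the start, Pcdhga1, Pcdhga3, Pcdhga4, Pcdhga5 and Pcdhga6 rose, by 1.24-fold to 1.65-fold. Pcdhga2, Pcdhgb1 and Pcdhgb2, which lie among them, were not called, with log2 differences of 0.26, 0.47 and -0.20. At the end, Pcdhga11, Pcdhga12, Pcdhgc3 and Pcdhgc5 fell, and Pcdhgc4 had a log2 difference of -0.25 (edgeR adjusted p = 0.299). In between, Pcdhgb4 and Pcdhga8 fell, Pcdhgb5 and Pcdhgb6 rose, and Pcdhga7, Pcdhga9, Pcdhga10 and Pcdhgb7 were not called.

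**Figure D5:**
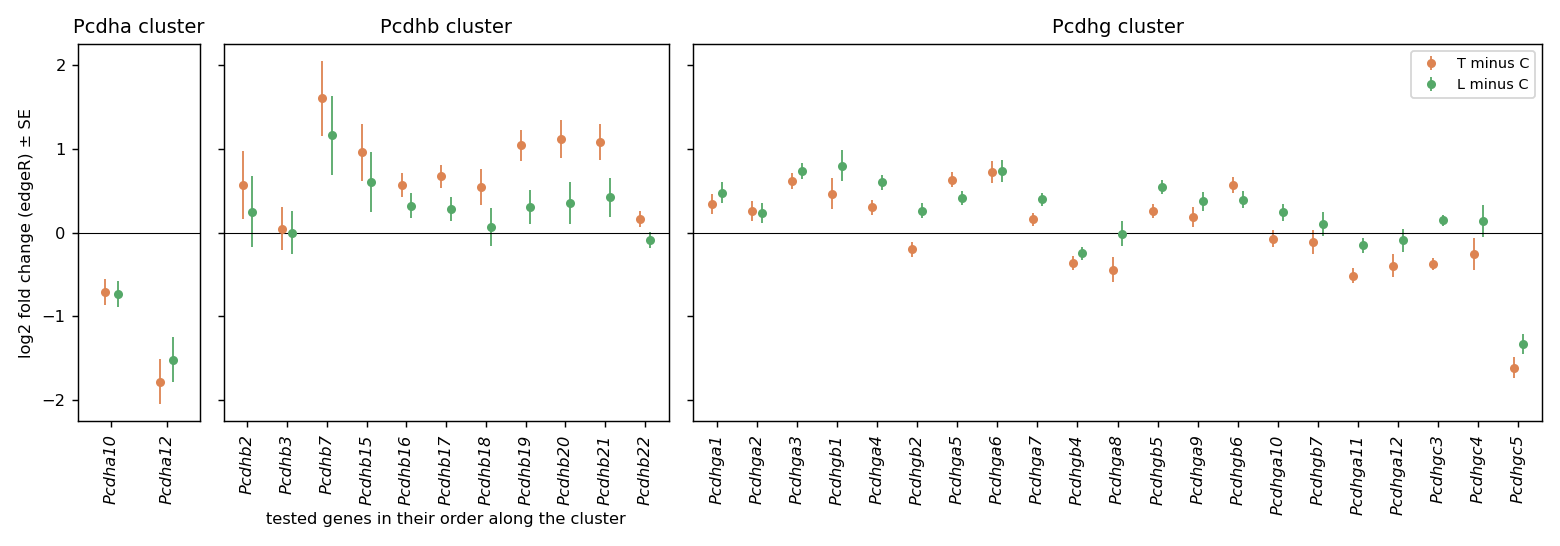
Log2 fold change with its SE from the edgeR fit for the tested genes of the Pcdha, Pcdhb and Pcdhg clusters, in their order along each cluster, for T minus C (orange) and L minus C (green). Pcdha genes lie below 0, Pcdhb genes lie at or above 0 in T, and in T minus C the Pcdhg genes at the start are mostly above 0 and those at the end below, while in L minus C Pcdhgc5 is the gene far below 0.

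The partners of cadherins and protocadherins are given as counts over whole lists, and the genes named from each are mostly those that changed most. Over all genes tested, 25.8% rose and 25.2% fell from C to T, and 24.4% and 25.2% from C to L, and these shares hold beside every list count that follows. Of 12 tested catenins and related plaque proteins, 3 rose and 6 fell from C to T and none rose and 7 fell from C to L, with a median log2 of -0.06 and -0.30, the first of which turned to 0.003 with library totals. Ctnnb1 (beta-catenin), which links classical cadherins to the cytoskeleton, had a log2 difference of 0.05 in T and 0.11 in L (edgeR adjusted p = 0.586 and 0.243), named after its values were seen. The plakophilin Pkp1 fell 6.48-fold to T and 8.79-fold to L, from 9.97 ± 0.453 TPM in C, Ctnnd2 (delta-catenin) fell 4.44-fold and 3.64-fold, and Pkp2 fell 3.68-fold and 2.27-fold. Of 15 tested linkers to actin and nectins, 5 rose and 8 fell from C to T and 3 rose and 6 fell from C to L (3 fell by limma on log2(TPM + 1)), with Shroom3 2.997-fold and 3.25-fold lower and Plekha7 1.70-fold and 1.959-fold lower.

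The atypical cadherins, giant relatives that orient cells within a sheet, had members of either direction: of 12, 5 rose and 3 fell from C to T (with 3 rises when T replicate 3 was left out), and 4 rose and 5 fell from C to L (2 rose without C replicate 2). Fat4 rose 2.62-fold and 1.91-fold, from 21.4 ± 1.18 TPM in C to 61.3 ± 3.33 in T and 44.0 ± 4.66 in L. Dchs1, its ligand, rose 1.27-fold from C to T and fell 2.53-fold from C to L, and Celsr1 fell 4.19-fold and 2.78-fold. Celsr1 averaged 0.507 ± 0.165 TPM in T and 0.915 ± 0.407 in L, so it met the filter only with its C libraries. Its falls were thus favoured by its entry. Of the desmosomal list 3 of 12 were tested. Dsc2, a desmosomal cadherin, rose 6.70-fold to T and 4.98-fold to L, reaching 1.89 ± 0.531 and 1.38 ± 0.111 TPM, and Dsp (desmoplakin) fell 2.35-fold from C to L. At 0.266 ± 0.094 TPM in C, Dsc2 met the filter through T and L alone. Of 4 tested cadherin-related genes, 2 rose from C to T and 1 from C to L, the latter, Clstn1, lost without C replicate 3, T replicate 3 or any library of L. Cdhr1, known from photoreceptors, rose 3.89-fold from C to T and fell 4.27-fold from T to L, and Clstn1 rose 1.17-fold from C to T.

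Of 8 tested factors that repress or regulate cadherin genes in epithelial to mesenchymal transition, 1 rose and 3 fell from C to T and 2 rose and 2 fell from C to L (4 fell without T replicate 1, and 1 rose without C replicate 2). Twist2 fell 3.12-fold to T and 4.24-fold to L, from 30.3 ± 1.29 TPM in C, Tcf4 fell 1.87-fold and 1.85-fold, and Zeb1 fell 1.27-fold to T. The repressors Snai1 and Snai2, named after their values were seen, did not pass in T (log2 0.10 and -0.15) or in L (log2 -0.003 and -0.06) against C. Of 13 tested genes of cadherin cleavage and maturation, 2 rose and 3 fell from C to T (with 4 rises without L replicate 3, and 1 without C replicate 3 or L replicate 1), and 2 rose and 1 fell from C to L. The proprotein convertase Pcsk5 rose 4.26-fold and 2.49-fold, its relative Pcsk6 fell 2.40-fold and 5.80-fold, and the protease Mmp3 rose 1.57-fold and 1.92-fold.

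Genes that organise the choice of clustered protocadherin promoters, chiefly CTCF and cohesin, were higher in T and L than in C where called. Of 13 tested, 5 rose and none fell from C to T and 12 rose and none fell from C to L, with a median log2 of 0.32 and 0.38, where 25.8% and 24.4% of all genes rose. The count of rises in L ranged from 6 to 13 over the alternatives and was 6 without C replicate 1, C replicate 2 or L replicate 2. The count of rises in T ranged from 4 to 10 and was 8 without C replicate 3 and 10 without T replicate 1. Dnmt3a, a DNA methyltransferase, rose 1.47-fold and 1.35-fold, and Nipbl and Smc3, of the cohesin loader and ring, rose 1.64-fold and 1.59-fold from C to L. Of 12 tested genes of the WAVE complex and other effectors, 2 rose and 5 fell in T as in L against C. The kinases Fyn and Ptk2 fell 1.97-fold and 1.58-fold from C to T, and Wasf1 rose 1.61-fold.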

How the data were processed

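RNA was sequenced from 9 libraries, 3 for each segment, grouped and numbered by title. For L replicate 3 the title was used, since its description points to the L replicate 2 column. The authors deposited for each gene an estimated count and a TPM value. Per the submitters' processing notes the tools were HISAT2 2.2.1 and StringTie 2.1.4, besides DESeq2 1.32.0, Trimmomatic 0.39 and FastQC 0.11.9, and a human and a mouse genome build are named, without roles. No source used here names the annotation or the strand setting. TPM values deposited by the authors served for the filter and the levels. Estimated counts deposited by the authors, whole in 92.7% of cells, were rounded and fitted with edgeR 4.0.16 (R 4.3.3, TMM scaling, segment as the only term, two-sided, Benjamini-Hochberg), and 112 genes with an ID but no symbol stayed in. DESeq2 1.42.0 and limma 3.58.1 gave alternatives. Replicates differed by more than sampling noise (chi-square per degree of freedom from 3.66 to 19.6). The procedure was tested on simulated data. Approximate 95% intervals were computed from the SE. Genes with a mean of at least 1 TPM in a segment outside the clusters are described singly, and in each cluster the 3 most abundant and the most changed. The members and lists were chosen with earlier results of these data known. Of 93 members, 92 matched RefSeq (GRCm38.p6). Protein sequences were not used here. A few genes that the naming rule or the marker lists include are not reported here.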

Additional observations from a re-analysis of the deposited data

How the results depend on the processing

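Counts of cadherins and protocadherins called stayed within 1.5 times under every alternative run: between T and C 37 to 50 against 41, between L and C 28 to 39 against 32, between L and T 17 to 28 against 24, and for any segment 40 to 52 against 45. The highest counts for T and L against C came with other filters on low values, where 69 or 89 members were tested. Leaving out single libraries gave 37 to 43, 28 to 35, 17 to 28 and 41 to 48. Of 1881 recomputed values of 33 named genes, 1813 stayed on their side of the threshold, 39 became called and 29 lost their call. The sign changed in 15 of the 1813, in 7 comparisons, none of them called before or after (adjusted p of 0.663 or more). The counts of the partner lists under these alternatives were added after the data were seen. Genes with fewer than 20 counts in C, such as Cdh1, have their fold limited by depth there.

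No pairing by replicate number was found: deviations of same-numbered libraries correlated between -0.147 and 0.292, over 0.1 in 3 of 9 pairs. With the replicate block the counts were 41, 32, 25 and 44.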
